A study of Homo sapiens with 4 samples.

Results

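NF-kB is a family of transcription factors built as dimers of Rel proteins. In unstimulated cells the dimers are held in the cytoplasm by inhibitors of the IkB family. Signals from cytokine receptors lead to the breakdown of IkB, the dimers enter the nucleus, and among the genes they activate are those of their own inhibitors, which ends the response. A second, slower branch runs through the precursor NFKB2 and its partner RELB.

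The genes described here are 10 NF-kB subunits and feedback inhibitors, taken by symbol from a table of 38972 genes. The 5 subunits are RELA, RELB, REL, NFKB1 and NFKB2, the IkB genes are NFKBIA, NFKBIB and NFKBIE, and the other 2 are TNFAIP3, which encodes the ubiquitin-editing enzyme A20, and BCL3, an atypical IkB protein of the nucleus. All 10 were in the table, and all 10 were among the 15651 genes that were tested, those whose mean over the libraries reached 1 TPM. TPM gives the share of a gene in the transcripts of its library, corrected for gene length, so that levels of different genes can be set side by side.

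RNA was sequenced from HEK293T, an established human embryonic kidney line transformed with adenovirus genes and carrying SV40 large T antigen. The labels give 2 libraries as overexpressing the epitope tag Flag (oeFlag), the control, and 2 as overexpressing RNase H1 (oeRNH1), which cuts the RNA strand of RNA-DNA hybrids. No source used here gives the vector, its promoter or the length of expression. Nothing in the labels says that the replicates were separate cultures, so p-values measure only the spread between these libraries, which may be technical. With 2 libraries against 2, an exact two-sided permutation test of a single gene cannot go below p = 0.333, and the tests below are those of limma across all genes.

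The transcript of the overexpressed gene did not check the labels. RNASEH1 was listed at 32.09 and 32.8 TPM in the oeFlag libraries and at 29.93 and 29.67 TPM in the oeRNH1 libraries (limma adjusted p = 0.260). A different gene has the symbol RNH1, and it was not called either (limma adjusted p = 0.857). Its values were 56.88 and 54.64 TPM in the oeFlag libraries and 51.54 and 58.32 TPM in the oeRNH1 libraries. RNH1 was named after its values were seen. Every direction below is therefore that of the libraries labelled oeRNH1 relative to those labelled oeFlag. Log2 values of the tested genes correlated at 0.99 within each group and at 0.98 across groups. Among markers of the embryonic kidney and neural character of HEK293 cells, the neurofilament genes NEFM and NEFL fell by 0.52 and 0.41 on the log2 scale. INA, GATA3 and EYA1 lay higher in the oeRNH1 libraries without overlap and were not called, and PAX2 overlapped between groups, so these markers did not move one way. The leukocyte markers PTPRC and CD3E were at 0 in both oeFlag libraries and did not exceed 0.02 and 0.07 TPM in the oeRNH1 libraries. The 4 endothelial markers summed to between 0.58 and 1.3 TPM in each library. The 4 fibroblast markers summed to 19.04 and 19.18 TPM in the oeFlag libraries and to 14.55 and 18.59 TPM in the oeRNH1 libraries, nearly all of it COL1A1. The 5 carcinoma epithelium markers summed to 3.85 and 4.43 TPM in the oeFlag libraries and to 5.78 and 3.65 TPM in the oeRNH1 libraries. The part of the lower NEFM and NEFL in the results below was not tested.

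NF-kB dimers bind DNA at the kappaB motif, and the stretches around its matches in the promoters of the family are shown because the family includes feedback targets of NF-kB itself. RefSeq (GRCh38.p14) gave the 250 bases before the start for 8 of the 10 genes, in 13 windows since some genes have several starts. RELB and NFKBIE had no entry. The windows were searched on both strands for the kappaB consensus. It was found in 6 of the 8 genes and 7 of their 13 windows, against 5.21% of all 35116 windows. The 6 genes were NFKB1, NFKB2, REL, NFKBIA, NFKBIB and TNFAIP3, and no match was found in the windows of RELA and BCL3. A match describes the letters only. Each stretch of 30 bases below is written 5′ to 3′ on the strand of the gene, with the match in capitals, or its reverse complement where the match lies on the other strand. Overlapping matches on the 2 strands are marked as one.
TNFAIP3 (chr6:137867188-137867217, plus strand): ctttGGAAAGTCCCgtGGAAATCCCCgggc
NFKBIA (chr14:35404811-35404840, minus strand): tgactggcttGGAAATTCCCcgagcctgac
NFKBIB (chr19:38899931-38899960, plus strand): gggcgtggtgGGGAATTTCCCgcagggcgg
REL (chr2:60881517-60881546, plus strand): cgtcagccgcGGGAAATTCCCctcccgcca
NFKB1 (chr4:102501300-102501329, plus strand): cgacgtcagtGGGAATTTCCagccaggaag
NFKB2 (chr10:102394461-102394490, plus strand): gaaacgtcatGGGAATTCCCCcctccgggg
TNFAIP3 held a pair of matches, which began 67 and 55 bases before the start. The match began 81 bases before the start in NFKBIA, 28 in NFKBIB, 47 in REL and 49 in NFKB1. For NFKB2, 1 of 4 stretches with a match is shown, with the match 107 bases before one of its starts. Starts here are those of RefSeq. By the GENCODE coordinates given below, the stretches of TNFAIP3, NFKBIB and NFKB2 lie inside the gene, and that of REL mostly does.

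As a family, the 10 genes were called about as often as the rest of the table. TNFAIP3 was called higher in the oeRNH1 libraries, none was called lower, and 9 were not called, where 11.8% of all tested genes were called in either direction (6.30% higher, 5.54% lower). The groups did not overlap in 6 of the 10, of which 5 were higher and 1 lower in the oeRNH1 libraries, against 60.7% of all tested genes (31.3% higher, 29.4% lower). Both shares are near those of the background, so they say nothing particular about the family. The median log2 fold change of the 10 genes was 0.07, beside 0.00 for all tested genes. Fold changes were computed on log2(TPM + 1), so the change of a low gene is smaller than the ratio of its TPM. In bulk RNA, a transcript present in fewer cells and one at less RNA per cell cannot be told apart.

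**Figure D1:**
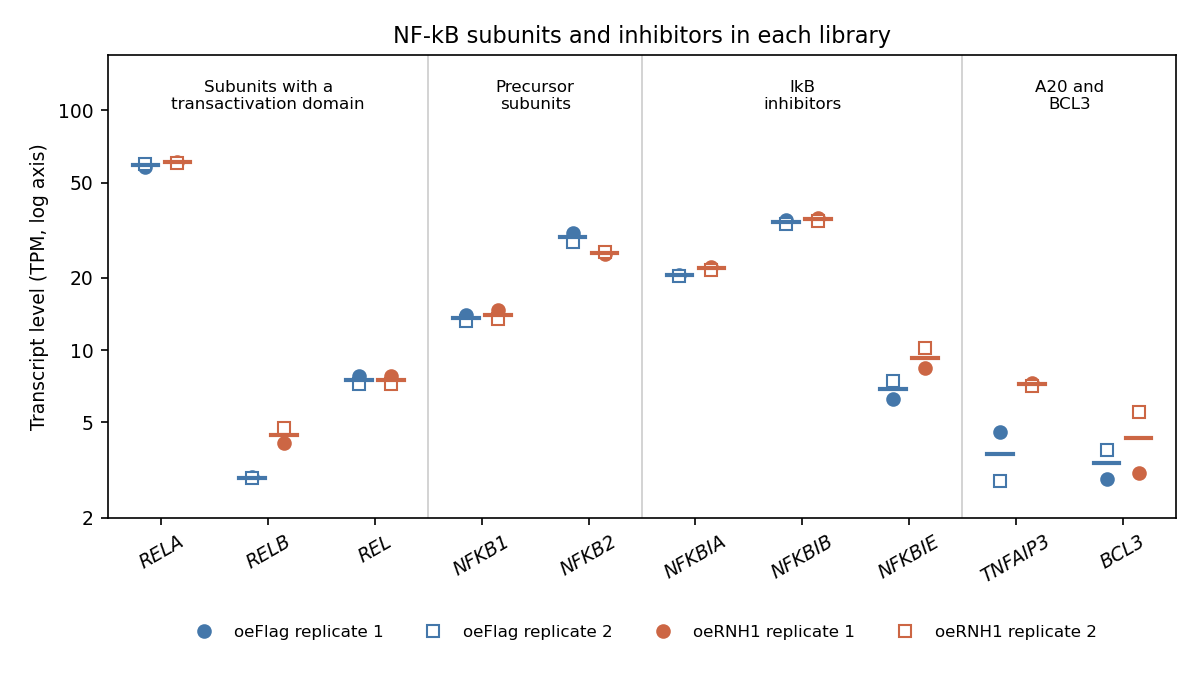
TPM of the 10 genes in each library on a log axis, with filled circles for replicate 1, open squares for replicate 2 and bars for group means. RELA stands highest near 60 TPM in all 4 libraries, and the visible gaps between groups are those of TNFAIP3, RELB, NFKBIE and NFKB2.

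RELA, the p65 subunit that carries the main transactivation domain, had the highest level of the family and differed little between groups. It was listed at 57.97 and 59.97 TPM in the oeFlag libraries and at 60.88 and 60.6 TPM in the oeRNH1 libraries. The oeRNH1 values both lay above the oeFlag values, by less than the distance between the oeFlag libraries in the nearer case. Its log2 fold change was 0.04 ± 0.05 (SE, n = 2 per group, 95% interval -0.09 to 0.17, limma adjusted p = 0.639). A change of more than 0.17 upward lies outside that interval. RELA was at percentile 82 of the tested genes by mean level.

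REL, the c-Rel subunit best known from lymphocytes, was present at a modest level. Its values were 7.79 and 7.23 TPM in the oeFlag libraries and 7.79 and 7.21 TPM in the oeRNH1 libraries. The 2 groups covered the same range, and the log2 fold change was -0.00 ± 0.11 (SE, 95% interval -0.27 to 0.27, adjusted p = 0.993). An unnamed noncoding transcript, ENSG00000267520, overlaps the exons of REL on the same strand and was listed at 4.25 to 5.37 TPM, so the level of REL is uncertain.

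RELB, the partner of the processed NFKB2 product in the slower branch, was the least abundant subunit and stood higher in both oeRNH1 libraries. It was listed at 2.96 and 2.91 TPM in the oeFlag libraries and at 4.1 and 4.73 TPM in the oeRNH1 libraries. The groups did not overlap, and the oeFlag libraries were nearly equal. The ratio of the means was 1.50 and the log2 fold change 0.46 ± 0.14 (SE, 95% interval 0.11 to 0.81). RELB did not pass over all genes (limma adjusted p = 0.0914), and no setting tried called it. It was at percentile 23.1 of the tested genes by level, where the added 1 TPM weighs heavily, and the fold change was 0.57 with a pseudocount of 0.1 and 0.25 with a pseudocount of 5. The longest transcript of RELB has a GC content of 65.4%. After correction for GC content the fold change was 0.59 ± 0.14 (SE, limma adjusted p = 0.0575).

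NFKB1 encodes the precursor p105, which is cut to p50, the usual partner of RELA. It stood at 13.96 and 13.17 TPM in the oeFlag libraries and at 14.63 and 13.48 TPM in the oeRNH1 libraries. The groups overlapped, with a log2 fold change of 0.05 ± 0.09 (SE, 95% interval -0.17 to 0.27, adjusted p = 0.763).

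NFKB2 encodes p100, which acts as an inhibitor until it is cut to p52. It was the 1 gene of the family whose oeRNH1 values both lay below its oeFlag values. The levels were 30.79 and 28.37 TPM in the oeFlag libraries and 25.13 and 25.69 TPM in the oeRNH1 libraries. The ratio of the means was 0.859 and the log2 fold change -0.21 ± 0.07 (SE, 95% interval -0.39 to -0.03). NFKB2 did not pass over all genes (limma adjusted p = 0.114). The longest transcript of NFKB2 has a GC content of 62.4%, and after correction for GC content the fold change was -0.12 ± 0.08 (adjusted p = 0.354).

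Summed over the 5 subunits, the level was 113.47 and 111.65 TPM in the oeFlag libraries and 112.53 and 111.71 TPM in the oeRNH1 libraries, so the total lay in the same range in both groups. RELA made up 51.1% and 53.7% of that sum in the oeFlag libraries and 54.1% and 54.2% in the oeRNH1 libraries. NFKB2 made up 27.1% and 25.4% in the oeFlag libraries and 22.3% and 23.0% in the oeRNH1 libraries. RELB made up 2.61% in each oeFlag library and 3.64% and 4.23% in the oeRNH1 libraries. These shares follow from the levels above, and describe transcripts, not proteins or dimers. NFKB2 exceeded NFKB1 in every library, by a ratio of 2.21 and 2.15 in the oeFlag libraries and of 1.72 and 1.91 in the oeRNH1 libraries.

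NFKBIA encodes IkB-alpha, the inhibitor that NF-kB re-makes within a response and that is widely used as a readout of the canonical branch. Its transcript was listed at 20.59 and 20.39 TPM in the oeFlag libraries and at 22.3 and 21.62 TPM in the oeRNH1 libraries. The groups did not overlap, and the gap between them was small. The log2 fold change was 0.10 ± 0.07 (SE, 95% interval -0.08 to 0.27, limma adjusted p = 0.416). The interval excludes a rise of the size fitted for TNFAIP3.

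NFKBIB, which encodes IkB-beta, was the most abundant of the 3 IkB genes. It stood at 34.91 and 33.48 TPM in the oeFlag libraries and at 35.65 and 34.52 TPM in the oeRNH1 libraries. The groups overlapped (log2 fold change 0.04 ± 0.06, SE, 95% interval -0.12 to 0.19, adjusted p = 0.742). SIRT2 overlaps its exons on the opposite strand and was listed at 19.68 to 23.51 TPM. No use of strand is stated, so reads of the pair cannot be told apart.

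NFKBIE, which encodes IkB-epsilon, a later-acting feedback inhibitor, was the least abundant IkB gene and stood higher in both oeRNH1 libraries. The values were 6.24 and 7.45 TPM in the oeFlag libraries and 8.45 and 10.16 TPM in the oeRNH1 libraries. The groups did not overlap, but the gap of the nearest libraries was smaller than the distance between libraries of either group. The ratio of the means was 1.36 and the log2 fold change 0.39 ± 0.14 (SE, 95% interval 0.06 to 0.73). NFKBIE did not pass over all genes (limma adjusted p = 0.115). The fold change was 0.27 without oeRNH1 replicate 2 and 0.51 without oeRNH1 replicate 1. The longest transcript of NFKBIE has a GC content of 61%. After correction for GC content the fold change was 0.47 ± 0.13 (SE, limma adjusted p = 0.0772).

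The 3 IkB genes summed to 61.74 and 61.32 TPM in the oeFlag libraries and to 66.4 and 66.3 TPM in the oeRNH1 libraries. Relative to the 5 subunits, the IkB transcripts stood at a ratio of 0.544 and 0.549 in the oeFlag libraries and of 0.590 and 0.594 in the oeRNH1 libraries. NFKBIB held the largest share of the IkB sum in each library, between 52.1% and 56.5%, followed by NFKBIA with 32.6% to 33.6%. NFKBIE held 10.1% and 12.1% in the oeFlag libraries and 12.7% and 15.3% in the oeRNH1 libraries, as its own values above imply.

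TNFAIP3 had the largest fold change of the family and was its 1 called gene. A20, its product, removes and edits ubiquitin chains on signalling proteins upstream of the IkB kinase. The values were 4.55 and 2.83 TPM in the oeFlag libraries and 7.31 and 7.07 TPM in the oeRNH1 libraries. Both oeRNH1 libraries were close to each other and above both oeFlag libraries, whereas the oeFlag libraries lay far apart. The group means were 3.69 ± 1.22 and 7.19 ± 0.170 TPM (SD, n = 2), a ratio of 1.95. The log2 fold change had a 95% interval from 0.35 to 1.30 (limma adjusted p = 0.0469), and TNFAIP3 held rank 189 among the 15651 tested genes by size of rise.

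The difference between the 2 oeFlag libraries in TNFAIP3 was 0.54 on the log2 scale, larger than that of 94.6% of the tested genes, and 0.04 between the oeRNH1 libraries. The fold change was 1.10 without oeFlag replicate 1 and 0.56 without oeFlag replicate 2, with adjusted p = 0.101 and 0.157, so the size of the rise depends on which oeFlag library is used. The direction held in all 16 settings and the call in 6, with limma adjusted p from 0.0220 to 0.168 where every library was used. The groups did not overlap, so leaving out 1 library or changing the pseudocount could not turn the sign. Other filters, other variance models and the replicate block leave the fold change as it is. The shared direction is therefore no separate support. The antisense gene WAKMAR2 overlaps exons of TNFAIP3 and was listed at 0.85 and 1.16 TPM in the oeFlag libraries and at 1.23 and 1.56 TPM in the oeRNH1 libraries. With no use of strand stated, reads of this pair cannot be told apart either.

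BCL3, which binds p50 and p52 dimers in the nucleus, was too variable to read. It was listed at 2.89 and 3.84 TPM in the oeFlag libraries and at 3.08 and 5.53 TPM in the oeRNH1 libraries. The groups overlapped. The distance between the oeRNH1 libraries was 0.68 on the log2 scale, larger than that of 96.9% of the tested genes. The log2 fold change was 0.25 ± 0.25 (SE, 95% interval -0.37 to 0.87, adjusted p = 0.546), and it was -0.09 without oeRNH1 replicate 2.

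**Figure D2:**
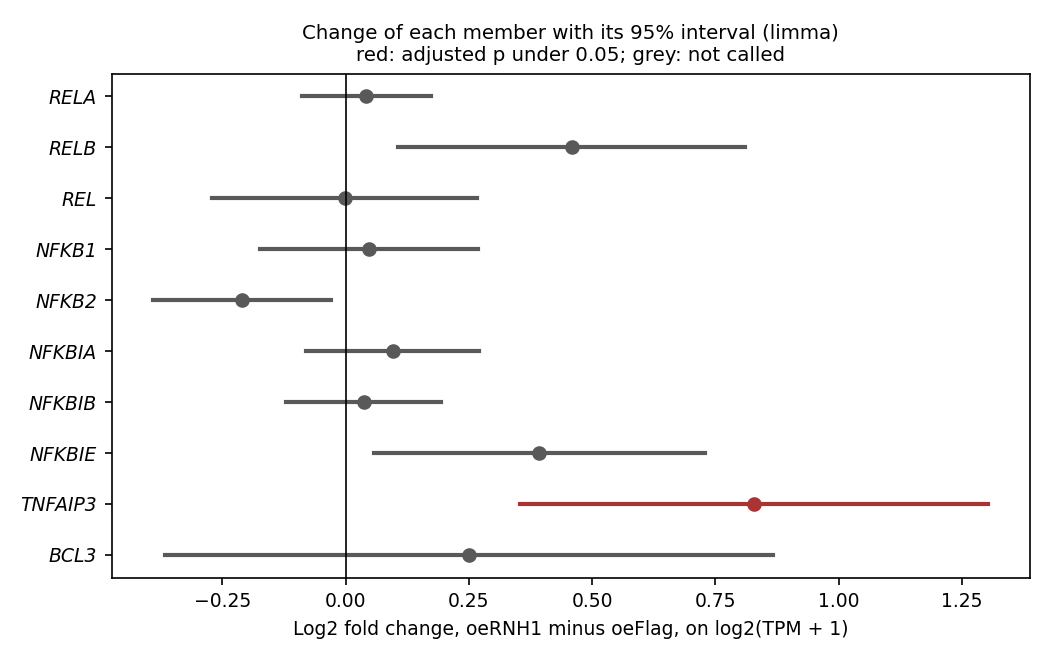
Log2 fold change of each of the 10 genes, oeRNH1 minus oeFlag, on the log2(TPM + 1) scale, with 95% intervals from limma. The intervals of RELB, NFKBIE, TNFAIP3 and NFKB2 exclude 0 before adjustment, and TNFAIP3 is the 1 gene called after it, at an adjusted p of 0.0469.

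In order of mean TPM the family ran from RELA (59.9 TPM) through NFKBIB (34.6), NFKB2 (27.5), NFKBIA (21.2) and NFKB1 (13.8) to NFKBIE (8.07), REL (7.50), TNFAIP3 (5.44), BCL3 (3.83) and RELB (3.67). From RELA down to NFKB1 the ranges of neighbouring genes over the 4 libraries did not overlap. NFKBIE and REL overlapped in range, as did REL and TNFAIP3, TNFAIP3 and BCL3, and BCL3 and RELB. REL lay above TNFAIP3 within each library, by little in oeRNH1 replicate 2 (7.21 against 7.07 TPM). The order of the other pairs changed between libraries and is not set by these data. NFKBIE and REL lay above BCL3 and RELB with no overlap. The 4 genes with a limma p under 0.05 before adjustment were TNFAIP3, RELB, NFKB2 and NFKBIE. Of these, NFKB2 stood at percentile 63.8 of the tested genes by level, NFKBIE at 36.7, TNFAIP3 at 29.6 and RELB at 23.1.

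**Figure D3:**
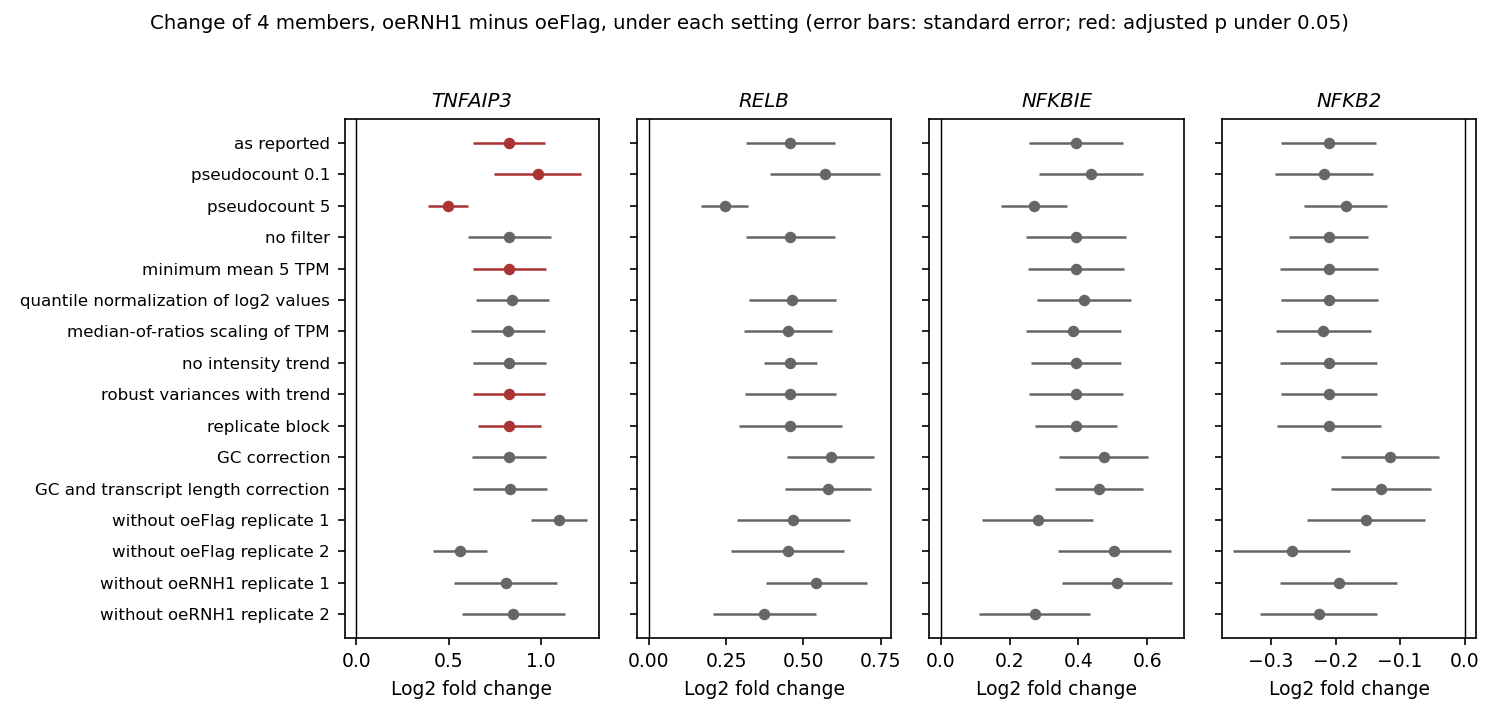
Log2 fold change of TNFAIP3, RELB, NFKBIE and NFKB2, oeRNH1 minus oeFlag, under the reported and 15 other settings, with standard errors and red points where the adjusted p was under 0.05. Each panel has its own axis, RELB has no value at a minimum mean of 5 TPM, and no gene crosses 0. The groups did not overlap in these genes, so most settings could not turn a sign.

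The 10 genes lie on 7 chromosomes (GENCODE release 29, GRCh38), and all are protein-coding. TNFAIP3 (chromosome 6, 137867188 to 137883312, plus strand, up to 9 exons) and NFKBIE (chromosome 6, 44258166 to 44265788, minus strand, up to 6 exons) share a chromosome but not a region. RELB (45001430 to 45038198), BCL3 (44747705 to 44760044) and NFKBIB (38899700 to 38908893) all lie on the plus strand of chromosome 19. RELB and BCL3 are close neighbours, and their fold changes were 0.46 and 0.25. NFKB2 lies on chromosome 10 (102394110 to 102402529), NFKB1 on chromosome 4 (102501329 to 102617302) and REL on chromosome 2 (60881521 to 60931610), all on the plus strand. RELA (chromosome 11, 65653596 to 65663094) and NFKBIA (chromosome 14, 35401511 to 35404749) lie on the minus strand. GC content of the longest transcript ran from 38.7% in REL to 67.4% in BCL3, with TNFAIP3 at 49.5%.

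The genes that feed the pathway were read from lists by role. Calls in these lists rest on all 4 libraries, since leaving out any 1 of them left between 0 and 15 calls in the whole table. Of 20 receptors and ligands, 7 reached the level to be tested. TNFRSF12A, the receptor of the cytokine TWEAK, rose from 37.94 and 41.32 TPM to 52.38 and 58.72 TPM (log2 0.48, adjusted p = 0.0239). TNFRSF1A, the main receptor of TNF, rose from 34.95 and 35.11 TPM to 44 and 44.63 TPM (log2 0.33, adjusted p = 0.0265). Thus 2 of the 7 were called higher, where 6.30% of all tested genes were, none was called lower, and 5 were not called, among them the interleukin-1 receptor gene IL1R1 at 1.54 and 1.31 against 2.22 and 2.4 TPM (adjusted p = 0.149). The ligand TNF was listed at 0.07 to 0.19 TPM and IL1B at 0 to 0.2 TPM. The Toll-like receptor genes TLR2, TLR3 and TLR4 did not exceed 0.43 TPM in any library, whereas TLR5 was listed at 1.85 and 1.49 against 2.23 and 0.87 TPM and was not called (adjusted p = 0.821). TNF, IL1B and these receptors, and MYD88 below, were named after their values were seen.

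Adaptors and kinases carry the signal from receptors to IkB. Of 21 genes 20 were tested, of which 4 were higher, 1 lower and 15 not called, with a median log2 fold change of -0.03. Over all tested genes 6.30% were called higher and 5.54% lower. TAB2 and TAB1 are partners of the kinase TAK1 and moved in opposite directions. TAB2 rose from 60.93 and 61.43 TPM to 80.5 and 73.18 TPM (log2 0.32, adjusted p = 0.0330), and TAB1 fell from 24.74 and 24.85 TPM to 18.22 and 18.1 TPM (log2 -0.43, adjusted p = 0.0227). The ubiquitin ligase gene BIRC2 rose by 0.27 (adjusted p = 0.0392) and was called in 8 of 16 settings. RIPK1, the kinase that docks on the TNF receptor complex, and TRAF6, a ligase of the interleukin-1 branch, rose by 0.36 and 0.41 (adjusted p = 0.0422 and 0.0408). TRAF6 was called in 8 of 16 settings, and after GC correction its adjusted p was 0.0567 and that of BIRC2 0.0748. RIPK1 and TRAF6 were named after their values were seen. The adaptor MYD88 was listed at 0.49 to 0.63 TPM.

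Among 15 other inhibitors and deubiquitinases, all tested, 3 were higher, none lower and 12 not called, beside 6.30% higher and 5.54% lower in the whole table. The median log2 fold change was 0.12. CYLD, a deubiquitinase that acts on the same signalling proteins as A20, rose from 25.85 and 24.91 TPM to 42.25 and 39.27 TPM (log2 0.66 ± 0.07, SE, adjusted p = 0.00990). RNF11, a partner of A20, rose from 38.81 and 44.67 TPM to 68.3 and 65.77 TPM (log2 0.67 ± 0.08, adjusted p = 0.0116). OTUD7B, a deubiquitinase also known as Cezanne, rose from 23.78 and 21.75 TPM to 31.37 and 30.01 TPM (log2 0.42, adjusted p = 0.0291). In each of the 3 both oeRNH1 libraries were above both oeFlag libraries. CYLD, RNF11 and OTUD7B were each called in 10 of 16 settings.

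A list of 11 genes held the ubiquitin ligase that marks IkB for breakdown, its partner enzymes and its regulators. All 11 were tested, and 1 was higher, 1 lower and 9 not called, with a median of 0.02. Over all tested genes 11.8% were called. SKP1, a core subunit of the ubiquitin ligase, rose by 0.19 from 484.05 and 479.5 TPM to 561.05 and 538.33 TPM (adjusted p = 0.0336). After GC correction its log2 fold change was 0.13 and it was not called (adjusted p = 0.0646). NEDD8, the ubiquitin-like protein that activates that ligase, fell by 0.20 from 395.04 and 373.66 TPM to 334.75 and 332.93 TPM (adjusted p = 0.0372). The ubiquitin-conjugating enzyme gene UBE2D1 had a log2 fold change of 0.22 and was not called (adjusted p = 0.116).

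Target genes that NF-kB is known to activate were mostly silent or low. Of 30 genes 16 were tested, of which 2 were higher, none lower and 14 not called, with a median log2 fold change of 0.14. The shares called over the whole table were 6.30% higher and 5.54% lower. Without overlap, 10 of the 16 lay higher and 2 lower in the oeRNH1 libraries, against 31.3% and 29.4% of all tested genes. IER3, an early response gene, rose from 10.43 and 11.89 TPM to 16.49 and 17.31 TPM (log2 0.56, adjusted p = 0.0255). PTGS2, the inducible cyclooxygenase, was at 0.51 and 0.73 TPM in the oeFlag libraries and at 2.01 and 2.56 TPM in the oeRNH1 libraries (log2 1.02, adjusted p = 0.0368) and was called in 7 of 15 settings. The chemokine gene CCL2, at 0.41 and 0.72 against 1.63 and 2.85 TPM, did not pass (log2 1.03, adjusted p = 0.0565). The oeFlag means of PTGS2 (0.62 TPM) and CCL2 (0.565 TPM) lay under the filter of 1 TPM, as did that of CXCL2 (0.62 TPM), named after its values were seen. These genes were tested only because of their oeRNH1 values. They enter the list median and the count without overlap, and PTGS2 the count called higher, so none of these is free of that selection. IER3 and PTGS2 are also induced by growth factor and stress signals, and the part of NF-kB in their rise was not tested.

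Several targets often used as readouts were below the level to be tested. CXCL8, the interleukin-8 gene, was at 0.16 and 0.21 TPM in the oeFlag libraries and at 1.03 and 1.85 TPM in the oeRNH1 libraries. CCL5 was at 0.36 and 0.21 against 1.15 and 1.19 TPM, and TRAF1 at 0.56 and 0.54 against 1.01 and 0.84 TPM. MMP9 was at 0.09 and 0.06 against 0.27 and 0.33 TPM. IL6 and SELE, under 1 TPM in every library, also stood higher in both oeRNH1 libraries. CXCL1, CXCL10 and BCL2A1 overlapped between groups, and CCL20 and CSF2 were at 0 throughout. ICAM1 was at 0.65 and 0.04 against 0.31 and 0.45 TPM, BIRC3 at 0.64 and 0.69 against 0.65 and 0.59 TPM, and VCAM1 at 0 in all 4 libraries. The antioxidant enzyme gene SOD2, at 77.74 and 77.89 against 82.92 and 85.12 TPM, had a log2 fold change of 0.11 and was not called (adjusted p = 0.192). IRF1 was unequal within the oeFlag group, at 5.81 and 23.39 TPM, and stood at 13.95 and 9.67 TPM in the oeRNH1 libraries. Every gene of this paragraph was named after its values were seen.

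**Figure D4:**
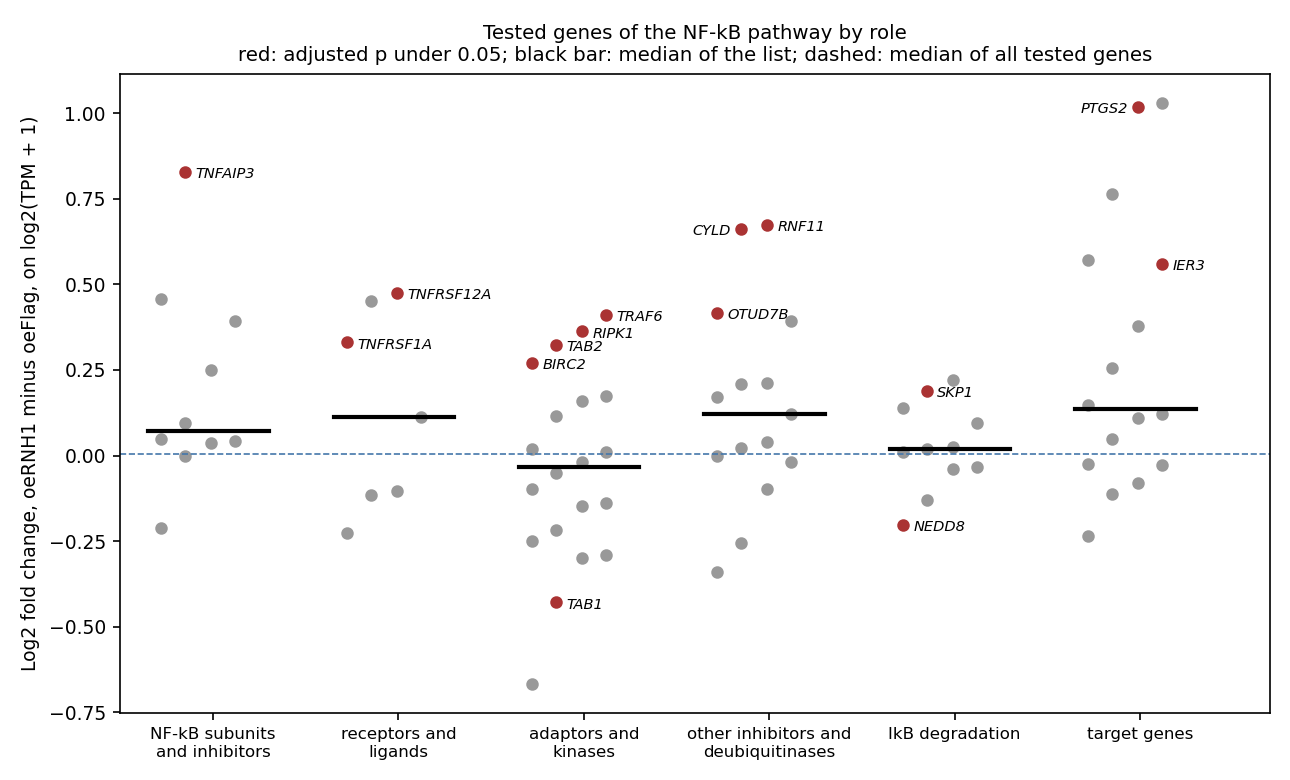
Log2 fold change of every tested gene in the family and in the 5 pathway lists, oeRNH1 minus oeFlag, with called genes in red and the median of each list as a bar. List medians lie between -0.03 and 0.14, near the dashed line of all tested genes, and called genes stand on both sides in 2 of the 6 columns.

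The genes whose 4 log2 values, each less the oeFlag mean, lay nearest to those of TNFAIP3 were ZNF461, CPEB4 and PLA2G4C, at Euclidean distances of 0.18, 0.19 and 0.22 among 10864 named genes whose mean reached 5 TPM. Like TNFAIP3 these 3 were higher in oeFlag replicate 1 than in oeFlag replicate 2 (10.33 against 7.79 TPM in ZNF461, 17.5 against 13.8 in CPEB4, 7.64 against 6.23 in PLA2G4C). Both oeFlag libraries enter the distance, so this shared order follows from how the genes were picked. The likeness rests on 4 libraries.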

How the data were processed

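The 4 libraries were made from total RNA with a VAHTS mRNA-seq V3 kit, per the labels' protocols. The authors deposited 1 table of TPM with a column per library. STAR and the hg38 build were used, per the submitters' processing notes. Tool versions, quantifier, annotation release and strand setting were not given in the sources used here. Each column summed to between 998901 and 998955 TPM. Depth cannot be read from TPM and is unknown, so counting intervals are left out.

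Genes reaching a mean of 1 TPM were tested on log2(TPM + 1) with limma 3.58.1 in R 4.3.3 (group term, two-sided, moderated variances with an intensity trend). Benjamini-Hochberg adjustment ran over the 15651 genes tested, and an adjusted p under 0.05 was called. The script was tested on simulated data. The family, the pathway lists and the tests were chosen with earlier results of these data known. The text names all 10 members, RNASEH1, the 3 genes with the smallest p in each pathway list and the 3 nearest profiles of the member with the smallest p. Alternatives were other pseudocounts, filters, scalings and variance models, a replicate block, each library left out, and, chosen after seeing the data, GC and transcript length corrections (97.9% of tested genes had a GENCODE transcript). Figures were drawn with matplotlib 3.10.9. Some marker genes are not reported here.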

Additional observations from a re-analysis of the deposited data

How the results depend on the processing

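Of the 10 family members only TNFAIP3 was called in any setting, and its fold change was positive in all 16 settings. Most of these settings could not turn its sign, since its groups did not overlap. Among members never called, the sign changed between settings in NFKB1 (positive in 15 of 16), REL (3 of 16) and BCL3 (14 of 15). The number of genes called by limma, 1853 as reported, was 0 with no filter on low values (5655 genes at an unadjusted p under 0.05; genes at 0 in all libraries left out), 1 without an intensity trend, and between 0 and 15 when 1 library was left out (3367 to 4035 at an unadjusted p under 0.05). Those fits leave 1 library in an arm, which is assumed to vary like the other arm. The number of family members called, 1 as reported, was 0 with no filter, under quantile normalization, under median-of-ratios scaling, without an intensity trend, after GC correction, after GC and transcript length correction, and when any 1 library was left out (1 to 3 members at an unadjusted p under 0.05 in the last, 3 or 4 in the others). The adjusted p of TNFAIP3 was 0.0509, 0.0523, 0.0605 and 0.0592 under the 2 scalings and the 2 corrections, with fold changes of 0.82 to 0.84, so the call sits at the threshold. The cause was not tested. With a minimum mean of 5 TPM, RELB and BCL3 could not be tested. The labels do not say whether replicates of the same number were handled together. Replicate differences of the groups correlated at 0.03 over genes, which cannot settle it. With the replicate number as a block, 2442 genes and 1 member were called.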
